A study of Mus musculus with 16 samples.

Results

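Citric acid cycle genes were followed in gastrocnemius, a muscle of the calf, from 16 mice. They are the 9 genes Cs, Idh3a, Idh3b, Idh3g, Idh2, Ogdh, Sucla2, Fh1, and Mdh2, taken by symbol from the 21923 genes in the table of counts, and all 9 passed the filter on low counts in every comparison. Poly(A) RNA was sequenced as 1 library per mouse, with 4 libraries in each of 4 groups, and the question was how cachexia, the wasting that accompanies a tumor, and 2 interventions on tumor-derived exosomes bear on muscle metabolism. NOR mice got a subcutaneous injection of PBS, phosphate-buffered saline, and bore no tumor. CAC and AM mice bore tumors of unmodified cells in the right flank, and KD mice bore tumors of Rab27 knock-down cells. From day 9, AM mice were given amiloride (2 mg/kg, intraperitoneal, daily) in PBS, and the other 3 groups were given PBS alone by the same route. The mice were several weeks old at inoculation and were sampled on day 30. Of the 4 mice of a group, replicates 1 and 2 have the strain label C57BL/6, the strain inoculated with Lewis lung carcinoma (LLC) cells. Replicates 3 and 4 have the label BABL/c (BALB/c), the strain inoculated with CT26 colon carcinoma cells. Effects of strain and of tumor line thus cannot be told apart. The knock-down is in the tumor cells and not in the muscle, so that these libraries cannot check it.

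The citric acid cycle runs in the mitochondrial matrix and oxidizes acetyl-CoA from pyruvate, fatty acids, and ketone bodies, passing the electrons to the respiratory chain as NADH and FADH2. Citrate synthase (Cs) joins acetyl-CoA to oxaloacetate and is widely used as a marker of mitochondrial content in muscle. The NAD-dependent isocitrate dehydrogenase, built from the catalytic subunit Idh3a and the regulatory subunits Idh3b and Idh3g, and the 2-oxoglutarate dehydrogenase, whose first component is Ogdh, carry out the oxidative decarboxylations, and both are controlled by calcium and by the energy state. Idh2 is a separate, NADP-dependent isocitrate dehydrogenase that supplies NADPH in the matrix. Sucla2 is the ATP-forming subunit of succinyl-CoA synthetase, Fh1 is fumarase, and Mdh2 is the malate dehydrogenase that restores oxaloacetate.

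The members lie on 9 different chromosomes, so that none is a neighbour of another. In GRCm38 (GENCODE M21), the genes with the subunits of the NAD-dependent isocitrate dehydrogenase are at chr9:54586334-54604661 on the plus strand (Idh3a), chr2:130279309-130284547 on the minus strand (Idh3b), and chrX:73778963-73786897 on the minus strand (Idh3g). Cs is at chr10:128337734-128362479 (plus), Idh2 at chr7:80094846-80115392 (minus), Ogdh at chr11:6291633-6356642 (plus), Sucla2 at chr14:73525319-73596142 (plus), Fh1 at chr1:175600374-175625635 (minus), and Mdh2 at chr5:135778480-135790398 (plus). All are annotated as protein coding. Of the 31-base words in the transcripts of Cs, 5.97% also occur in another gene, mostly Csl, and this share was at most 0.820% for the other 8 genes.

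Promoter sequences are shown for Cs, Idh3g, and Fh1, whose RNA levels did not overlap between CAC and NOR mice, and for Ogdh, whose levels did. Each is the 250 bases before a RefSeq transcription start (GRCm38.p6), written along the gene's own strand, with the matches to the motifs searched in capitals. Cs is at chr10:128337477-128337726, Idh3g at chrX:73786898-73787147, Fh1 at chr1:175625636-175625885, and Ogdh, at the first of its 6 listed starts, at chr11:6291347-6291596.
Cs: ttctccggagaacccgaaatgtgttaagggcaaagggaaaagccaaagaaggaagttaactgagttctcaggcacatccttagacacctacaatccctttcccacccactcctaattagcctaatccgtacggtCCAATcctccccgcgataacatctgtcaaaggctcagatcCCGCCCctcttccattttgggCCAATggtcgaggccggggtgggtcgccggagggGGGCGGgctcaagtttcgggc
Idh3g: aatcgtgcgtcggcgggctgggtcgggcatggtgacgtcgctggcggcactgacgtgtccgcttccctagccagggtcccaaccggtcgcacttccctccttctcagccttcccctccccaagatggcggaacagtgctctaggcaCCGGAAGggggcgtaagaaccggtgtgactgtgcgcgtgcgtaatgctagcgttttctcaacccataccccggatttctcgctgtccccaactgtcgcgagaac
Fh1: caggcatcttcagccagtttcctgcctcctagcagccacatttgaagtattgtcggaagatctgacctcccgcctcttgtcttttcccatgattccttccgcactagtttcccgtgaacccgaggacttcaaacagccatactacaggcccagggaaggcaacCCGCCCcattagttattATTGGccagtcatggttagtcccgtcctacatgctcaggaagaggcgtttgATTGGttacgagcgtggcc
Ogdh: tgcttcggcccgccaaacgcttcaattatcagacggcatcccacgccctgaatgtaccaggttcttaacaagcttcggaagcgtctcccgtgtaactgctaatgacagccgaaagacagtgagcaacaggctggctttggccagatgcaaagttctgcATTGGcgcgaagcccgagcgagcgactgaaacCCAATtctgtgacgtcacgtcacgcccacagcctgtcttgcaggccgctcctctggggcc
The motifs, searched on both strands, were the CCAAT box (CCAAT), the Sp1 GC box (GGGCGG), an ETS core with its flank (CCGGAAG), the E-box sequence CACGTG, the TATA box written TATAAA, the extended element of the estrogen-related receptors (TCAAGGTCA), and the palindromic NRF1 site. No letters were shared between matches of different motifs in the windows shown. Among the 8 members with a promoter in the table, at the first start of each, 5 held a CCAAT box, which 33.8% of all 32536 promoters hold, 5 held a GC box (33.0% of all), and 1, Idh3g, held the ETS core (6.95% of all). Cs and Fh1 had both a CCAAT box and a GC box, Ogdh had a CCAAT box on each strand at this first start, and Idh3g had neither. The windows of other Ogdh starts held a GC box at starts 3 and 4 and the E-box at starts 4, 5, and 6. The receptor element (0.375% of all promoters), the NRF1 site (0.784%), the E-box (6.04%), and the TATA box (12.3%) were in none of the 8 windows at the first starts. Such matches describe letters in a window and not binding.

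The cycle genes were among the most abundant transcripts of this muscle. On the deposited FPKM scale, which is per length and so allows genes to be compared, Mdh2 had the highest level in the NOR gastrocnemius with 880 ± 49.4 FPKM (SD, n = 4), rank 61 of the genes tested. Idh2 (307 ± 64.1 FPKM), Idh3g (303 ± 6.40 FPKM), Ogdh (291 ± 28.8 FPKM), Idh3b (277 ± 13.4 FPKM), and Cs (274 ± 18.2 FPKM) followed close together, and in this order each overlapped with the next between mice. Sucla2 (209 ± 8.73 FPKM), Idh3a (198 ± 13.9 FPKM), and Fh1 (147 ± 5.43 FPKM, rank 449) were lower, of which Sucla2 and Idh3a overlapped. A member had between 5938 and 77326 counts in a library, so that the spread between mice, and not the depth, sets the errors.

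All other levels are TMM-normalized CPM, that is, read counts scaled to the size of each library with edgeR's TMM factors, a scale that compares a gene across mice and not genes with each other. A gene was called a DEG with edgeR's quasi-likelihood F test at a Benjamini-Hochberg FDR of at most 0.05, adjusted over all genes tested, with an at least 1.5-fold difference (a ratio of 0.667 or less where RNA was lower). Totals were 35913190 to 61032708 counts per library. Several libraries stood apart. NOR replicate 1 was the highest of its group for 9 of the 9 members and CAC replicate 3 the lowest of its group for 9 of 9, and their TMM factors of 0.843 and 1.20 were the lowest and the highest of the 16. KD replicate 3 was the highest KD library for 9 of 9. It had 0 CPM over 4 Y-linked genes, where the other 15 libraries had 110 to 172 CPM (the methods describe male mice, and the labels also name females of the BALB/c strain). The 7 lymphocyte markers summed to under 3 CPM in 5 libraries (NOR replicate 1, CAC replicates 1 and 4, KD replicates 2 and 3) and to 25.3 to 296 CPM in the other 11. AM replicate 1 alone had a high sum of hepatocyte markers, 1527 CPM. Muscle identity was plain in all 16 libraries, with 34134 to 101485 CPM summed over 4 general muscle markers.

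In the muscle of CAC mice the RNA of 3 members fell compared with NOR mice, and 8 of the 9 had a lower estimate. Idh3a fell 2.03-fold, Sucla2 1.57-fold, and Cs 1.56-fold. These 3 DEGs, all lower, compare with 5.13% of the 14666 genes tested that were DEGs with lower RNA in CAC (9.45% in either direction). The median log2 fold change of the members was -0.60, where that of all genes was 0.01. Idh2 alone had a higher estimate.

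Idh3a, the catalytic subunit, was measured at 633, 493, 484, and 442 CPM in NOR replicates 1 to 4 and at 256, 296, 182, and 276 CPM in CAC replicates 1 to 4. Every CAC mouse was below every NOR mouse by a wide margin, the highest CAC value being 296 and the lowest NOR value 442 CPM. The log2 fold change was -1.02 (SE 0.180, FDR 0.0107), and it was nearly the same within the mice labelled C57BL/6 (-1.02) and BALB/c (-1.05). Idh3a was a DEG in 19 of 22 alternatives, the exceptions being each strain alone (2 mice against 2) and the fit without the 5 libraries of few lymphocyte transcripts, where its log2 fold changes were -0.98, -1.02, and -0.98.

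Cs, the entry enzyme, had 1043, 769, 782, and 743 CPM in the NOR mice and 572, 580, 391, and 604 CPM in the CAC mice. NOR replicate 1 and CAC replicate 3 were the extremes, and the groups did not overlap. Its log2 fold change was -0.64 (SE 0.179, FDR 0.0490), just inside the FDR limit. With the replicate number as a block the FDR of Cs was 0.0684, and Cs was no DEG. Sucla2 had 376, 299, 295, and 282 CPM in NOR and 230, 235, 140, and 196 CPM in CAC, again without overlap, with a log2 fold change of -0.65 (SE 0.178, FDR 0.0462). Both calls stood near the limit, since neither gene was a DEG when any 1 of the 8 mice was left out (FDR of up to 0.101 for Cs and 0.103 for Sucla2). Without CAC replicate 3 the FDR of both still passed, but the log2 fold changes of -0.49 did not reach the fold limit.

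The regulatory subunits Idh3b and Idh3g had smaller differences than Idh3a. Idh3g was at 494, 392, 401, and 391 CPM in NOR and at 307, 314, 221, and 298 CPM in CAC, and its log2 fold change of -0.56 (FDR 0.0380) passed the FDR limit but not the fold limit. With the replicate number as a block the FDR of Idh3g was 0.0581. Idh3b was at 565, 439, 429, and 428 CPM in NOR and at 358, 374, 257, and 335 CPM in CAC, with a log2 fold change of -0.49 (FDR 0.0688). Neither gene had overlapping groups.

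The enzymes of the second part of the cycle, fumarase and malate dehydrogenase, had differences of the same size. Fh1 had 292, 227, 230, and 222 CPM in NOR and 168, 164, 113, and 194 CPM in CAC (log2 fold change -0.61, FDR 0.0517). Mdh2 had 974, 761, 747, and 707 CPM in NOR and 526, 584, 361, and 632 CPM in CAC (log2 fold change -0.60, FDR 0.0737). Both missed the FDR limit narrowly, although no CAC mouse reached a NOR mouse. In all, 4 members passed the FDR limit with lower RNA (6.17% of all genes did), 7 had an unadjusted p of at most 0.05 and lower RNA (13.6% of all genes), and 7 of 9 had every CAC mouse below every NOR mouse. That pattern was seen in 10.5% of all genes tested, and its p of 0.0286 (two-sided exact permutation test on CPM) is the smallest that 4 mice against 4 can give.

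Ogdh and Idh2 were the 2 members with overlapping groups. Ogdh had 1170, 811, 804, and 809 CPM in NOR and 853, 799, 528, and 795 CPM in CAC, with an estimate of -0.27 on the log2 scale (SE 0.197, FDR 0.406). Leaving out 1 mouse at a time gave -0.35 to -0.12 for Ogdh. Idh2, the NADP-dependent enzyme, had 489, 321, 246, and 321 CPM in NOR and 501, 436, 269, and 642 CPM in CAC, and its log2 fold change was 0.42 (SE 0.290, FDR 0.381). With 1 mouse left out the Idh2 estimate was 0.22 to 0.64. Idh2 was a DEG in 1 of 22 alternatives, the fit without NOR replicate 1 and CAC replicate 3 (0.83, FDR 0.0414). That choice, made after the values were seen, had to raise the estimate.

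**Figure D1:**
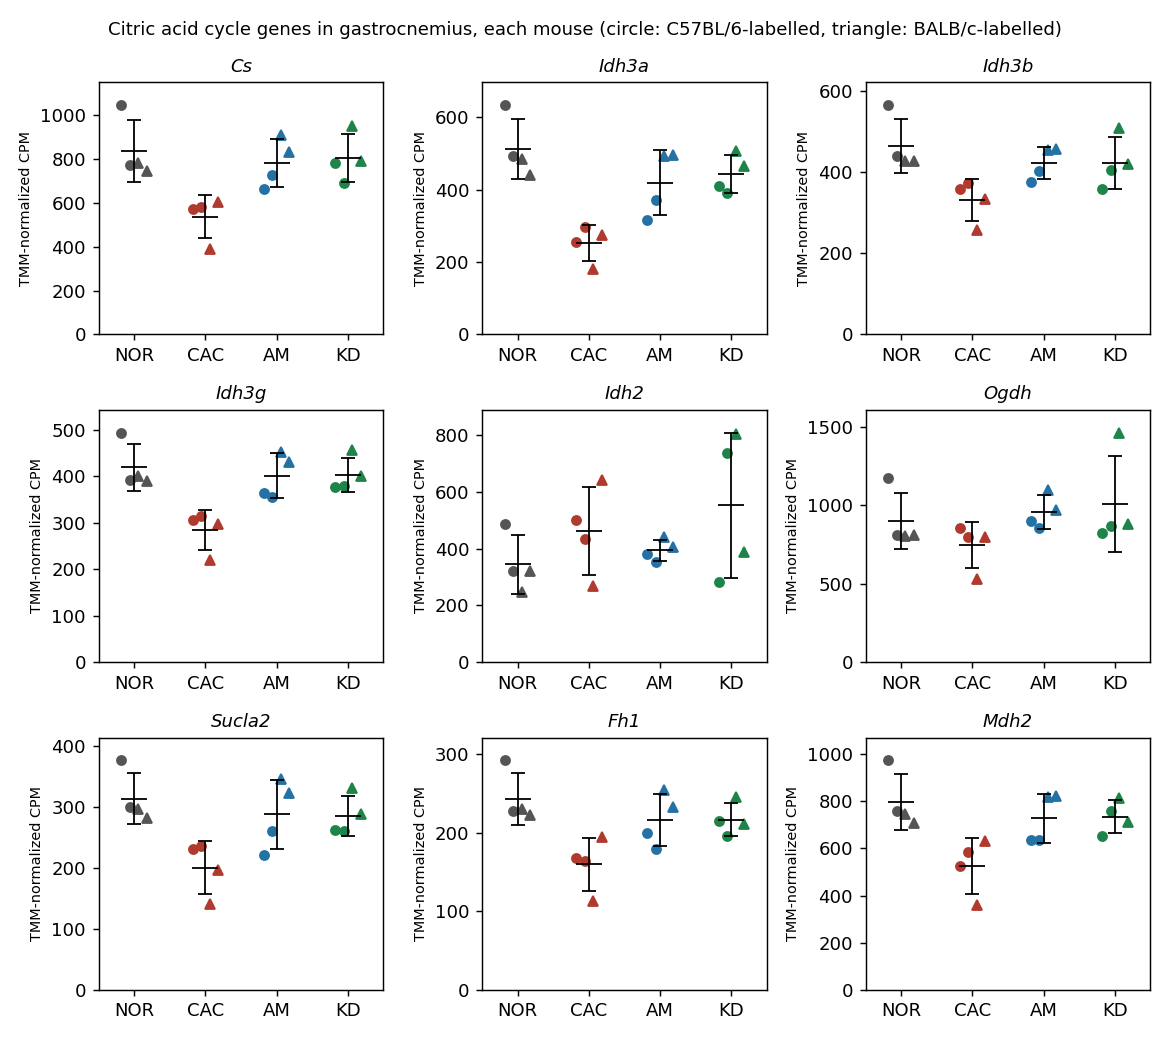
TMM-normalized CPM (vertical axes, from 0) of the 9 citric acid cycle genes in each mouse, by group, with circles for mice labelled C57BL/6, triangles for BALB/c, and the bar and whiskers for mean and SD (n = 4). The CAC mice lie below all NOR mice for 7 genes, and Idh2 and Ogdh overlap.

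Markers of several cell types differed between the same groups. In bulk RNA, fewer cells of a type and less RNA per cell cannot be told apart. Of the 8 fast fibre markers, 7 had lower estimates in CAC and 0 were DEGs in edgeR (3 had an unadjusted p of at most 0.05), with sums of 96575 to 144389 CPM in NOR and 55837 to 114573 CPM in CAC. The 9 slow and oxidative fibre markers had a median log2 fold change of -0.02 with 0 DEGs and 0 at an unadjusted p of at most 0.05 (4840 to 11494 CPM in NOR, 2895 to 9692 CPM in CAC). Among blood cells, the lists differed in direction. All 5 erythrocyte markers were DEGs (sums of 1049 to 1359 CPM in NOR and 3628 to 8615 CPM in CAC), as were 3 of 4 neutrophil markers (3.34 to 20.5 CPM in NOR and 78.5 to 181 CPM in CAC), all of them higher in CAC. The 7 lymphocyte markers all had lower estimates (median log2 fold change -0.58), with 0 DEGs and 0 at an unadjusted p of at most 0.05. The 3 fibroblast markers summed to 1513 to 1913 CPM in NOR and 716 to 1172 CPM in CAC without overlap, all with lower estimates, and 1 of them, Col1a1, fell (log2 fold change -3.61). Of the 3 tendon markers, Tnmd fell (-3.38), the others had log2 fold changes of 0.22 (Scx) and -0.51 (Thbs4), and the sums overlapped. The 4 general muscle markers differed in direction, since Des rose (1.05) and the others were at -0.77 (Acta1), -0.30 (Ckm), and 0.18 (Ttn). So did the 3 endothelial markers, of which Pecam1 rose (0.77) and the others were at -0.91 (Kdr) and -0.08 (Cdh5). CAC replicate 3, the lowest library for the cycle genes, also had the lowest sums of fast fibre, slow fibre, and general muscle markers and the highest adipocyte sum, 5034 CPM. The part of these markers in the results was not tested.

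Ratios between the members within a library do not depend on how the library is scaled. A ratio of counts also holds the lengths of both genes and so is compared across mice only. The pairs described here were chosen after their values were seen. Idh3a to Idh3b was 1.12, 1.12, 1.13, and 1.03 in NOR replicates 1 to 4 and 0.715, 0.791, 0.708, and 0.823 in CAC replicates 1 to 4. The catalytic subunit was thus lower against this regulatory subunit in every CAC mouse than in any NOR mouse, a pattern that 3.19% of all genes tested showed against Idh3b. The ratio of Idh3a to Idh3g was likewise 1.13 to 1.28 in NOR and 0.825 to 0.942 in CAC (2.77% of genes showed this against Idh3g). The regulatory subunits stayed much closer to each other, at 1.07 to 1.14 in NOR and 1.13 to 1.19 in CAC for Idh3b to Idh3g, with overlapping ranges. Against Cs, Idh3a was also lower, at 0.595 to 0.641 in NOR and 0.447 to 0.510 in CAC (2.24% of genes).

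Idh2 was higher in CAC relative to every other member, without overlap. Ogdh was higher in this way relative to each member except Idh3b, where the ratio overlapped, and Idh2, against which it was lower. Of all 36 pairs of members, 21 did not overlap between CAC and NOR. The share of all genes that were higher is given below for Cs and Idh3a. Ogdh to Cs was 1.12, 1.05, 1.03, and 1.09 in NOR and 1.49, 1.38, 1.35, and 1.32 in CAC, without overlap. Since Cs itself was lower, 47.8% of all genes tested were higher against Cs in this way, so that the ratio is not particular to Ogdh. Idh2 to Idh3a, the NADP-dependent over the NAD-dependent enzyme, was 0.772, 0.651, 0.509, and 0.727 in NOR and 1.96, 1.47, 1.48, and 2.33 in CAC, and 66.8% of genes were higher against Idh3a in this way. By contrast, Fh1 to Mdh2 was 0.305 ± 0.00736 in NOR and 0.305 ± 0.0166 in CAC, and Cs to Mdh2 was 1.04 ± 0.0251 and 1.03 ± 0.0653 (SD, n = 4 each). The mean proportions of citrate synthase, fumarase, and malate dehydrogenase RNA were thus nearly the same in both groups.

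**Figure D2:**
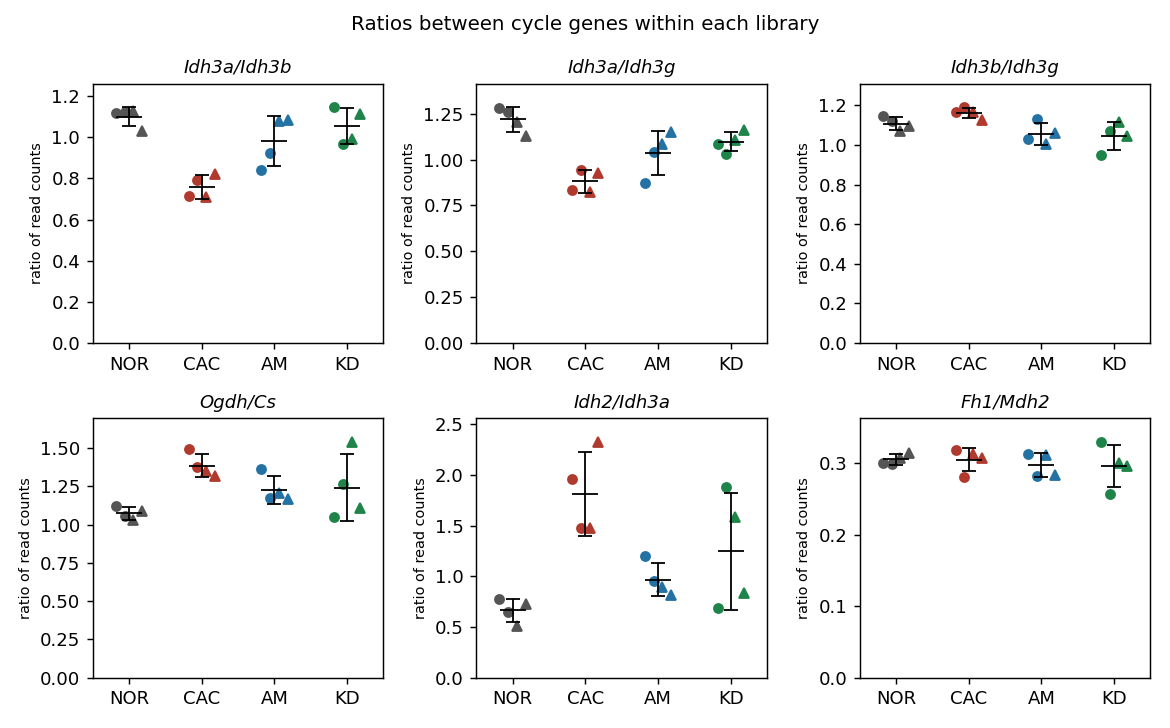
Ratios of the read counts of 2 cycle genes within each library (vertical axes, from 0) for the mice of each group, with circles for mice labelled C57BL/6, triangles for BALB/c, and the bar and whiskers for mean and SD (n = 4). The CAC mice lie at 0.708 to 0.823 for Idh3a/Idh3b, below the NOR range of 1.03 to 1.13, whereas Fh1/Mdh2 averages 0.305 in both groups.

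In AM mice, 8 of the 9 members had a higher estimate than in CAC mice, at a median of 0.47 on the log2 scale, and Idh2 had a lower one. However, 0 members were DEGs in edgeR, where 1.63% of the 14674 genes tested were DEGs with higher RNA in AM. At an unadjusted p of at most 0.05 there were 7 members, all higher, beside 9.47% of all genes. DESeq2 called 1 member (Idh3a) and limma-voom called 0. Idh3a had 316, 372, 492, and 496 CPM in AM replicates 1 to 4, against 256, 296, 182, and 276 CPM in CAC, so that every AM mouse was above every CAC mouse. Its log2 fold change was 0.73 (SE 0.198, FDR 0.0729), and the FDR was 0.00625 to 0.323 over the 21 alternatives.

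Cs (660, 727, 909, and 828 CPM in AM), Idh3b (375, 404, 456, and 457 CPM), Idh3g (364, 356, 454, and 431 CPM), and Mdh2 (635, 636, 817, and 822 CPM) were also above every CAC mouse, Idh3b and Mdh2 by narrow margins, with log2 fold changes of 0.36 to 0.54 and an FDR of 0.0879 to 0.191. These 5 members of 9 without overlap stand beside 6.08% of all genes. Sucla2 (220, 261, 345, and 323 CPM in AM), Fh1 (199, 179, 254, and 233 CPM), and Ogdh (899, 853, 1099, and 968 CPM) overlapped with CAC at 1 end. The ratio of Idh3a to Idh3b was 0.844, 0.922, 1.08, and 1.09 in AM, above every CAC mouse, which 2.13% of all genes showed against Idh3b. Idh2 had 380, 354, 441, and 406 CPM in AM, the narrowest spread of any group, with a log2 fold change of -0.22 (FDR 0.647). With 1 mouse left out the estimate was -0.41 to -0.02. As a ratio of counts, Idh2 was lower in AM than in CAC relative to every other member, without overlap (a log2 difference of -0.54 against Ogdh). How many other genes were lower in this way was not counted. In AM vs. CAC, 1 of 3 fibroblast markers, Col1a1, rose (log2 fold change 3.02), 1 of 3 tendon markers, Tnmd, rose (2.49), and 1 of 4 general muscle markers, Des, fell (-0.92). The other tendon markers were at -0.71 (Scx) and 0.58 (Thbs4), and the other muscle markers at 0.61 (Acta1), 0.21 (Ckm), and -0.02 (Ttn). Of the 8 fast fibre markers 7 had higher estimates (median 0.30), as had 6 of the 9 slow and oxidative ones (0.12). All 7 lymphocyte markers had higher estimates (median 0.74) and all 4 neutrophil markers lower ones (-0.96). None of these lists held a DEG, and 1 fast fibre marker had an unadjusted p of at most 0.05. The part of these markers in the values of the cycle genes was not tested.

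The values of the AM mice split by labelled strain. For 9 of 9 members, both BALB/c mice were above both C57BL/6 mice, where 20.8% of all genes were. In KD mice this held for 6 of 9, beside 13.4% of all genes. In the other 2 groups, both BALB/c mice were below both C57BL/6 mice for 5 of 9 members in NOR (22.6% of all genes) and for 4 of 9 in CAC (20.8%), and above for 0. The log2 difference between AM and CAC was 0.32 within C57BL/6 and 1.14 within BALB/c for Idh3a, and 0.05 and 1.01 for Sucla2. CAC replicate 3, the lowest library, belongs to the BALB/c side. The interaction of strain with condition, tested in edgeR with no fold limit, gave 0 members at an FDR of at most 0.05 and 0 of all genes, and 3 members at an unadjusted p of at most 0.05, namely Sucla2 (FDR 0.326), Idh3a (FDR 0.388), and Idh3g (FDR 0.400), beside 12.4% of all genes. With 2 mice of a strain in each group, the median log2 fold change of the members was 0.19 within C57BL/6 and 0.72 within BALB/c.

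In KD mice, all 9 members had a higher estimate than in CAC mice, with a median log2 fold change of 0.48. Again 0 were DEGs in edgeR, as were 0 of all 14593 genes tested in the higher direction (0.00685% in either direction). At an unadjusted p of at most 0.05 there were 6 members, all higher, beside 6.06% of all genes. DESeq2 called 1 (Idh3a) and limma-voom 0. Idh3a had 411, 391, 507, and 467 CPM in KD replicates 1 to 4, all above the CAC mice, with a log2 fold change of 0.81 (SE 0.188, FDR 0.263). The comparison shares its CAC libraries with that of AM, so that the 2 are not independent. The 9 slow and oxidative fibre markers also all had higher estimates in KD, with a median log2 fold change of 0.77 against CAC and 0.89 against NOR (0 DEGs in each, and 1 and 0 at an unadjusted p of at most 0.05). Their sums were 5721, 12735, 12988, and 7402 CPM in KD replicates 1 to 4. All 8 fast fibre markers had higher estimates than in CAC too (median 0.38, 0 DEGs, 1 at an unadjusted p of at most 0.05). Against NOR, 2 of these 8 were higher and 6 lower (median -0.07). Against CAC, 1 of 3 fibroblast markers and 2 of 3 tendon markers had higher estimates (highest 2.80 and 2.27), with 0 DEGs. The part of all these markers in the cycle gene values of KD was not tested.

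Cs (782, 689, 948, and 790 CPM in KD), Idh3g (378, 379, 457, and 402 CPM), Sucla2 (262, 261, 331, and 287 CPM), Fh1 (214, 195, 245, and 210 CPM), and Mdh2 (651, 759, 816, and 712 CPM) were above every CAC mouse as well. With Idh3a these were 6 of 9 members without overlap, beside 3.63% of all genes. Idh3b (359, 405, 510, and 419 CPM) overlapped with CAC. Idh3a to Idh3b was 1.15, 0.967, 0.994, and 1.11 in KD, above every CAC mouse, as for 1.1% of genes against Idh3b. Ogdh (822, 870, 1460, and 876 CPM) and Idh2 (283, 737, 803, and 389 CPM) were also highest in KD replicate 3. Without that library, their log2 fold changes were 0.22 in place of 0.43 and 0.03 in place of 0.25.

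**Figure D3:**
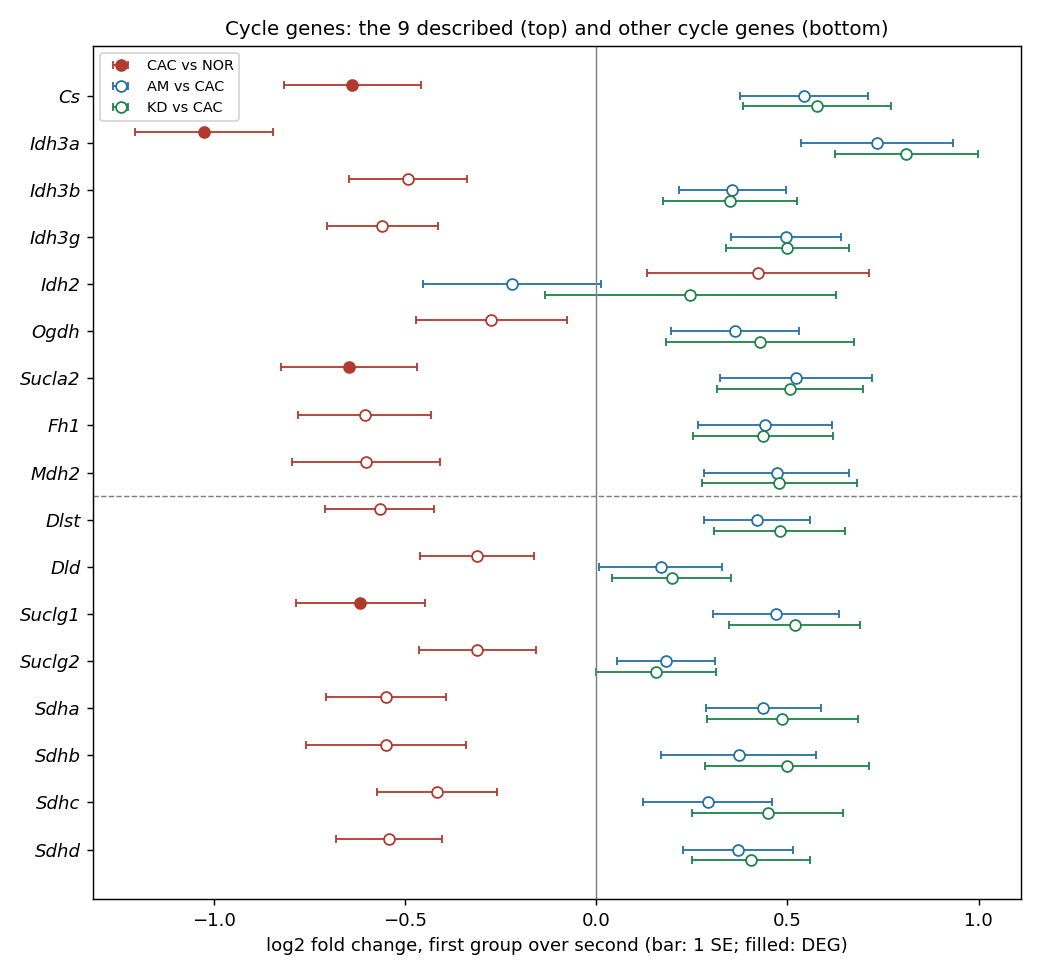
Log2 fold changes (horizontal axis) of the 9 cycle genes described and of 8 other cycle genes below the dashed line, in the CAC, AM, and KD comparisons (CAC against NOR, the others against CAC), with bars of 1 SE from edgeR and filled points for DEGs. The DEGs are Cs, Idh3a, Sucla2, and Suclg1 in CAC vs. NOR, and Idh2 is the only gene with a positive value there.

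Compared with NOR directly, the AM and KD groups overlapped with NOR for all 9 members, although single mice lay outside the NOR range, such as AM replicates 1 and 2 for Idh3a and KD replicates 2 and 3 for Idh2. No member was a DEG in AM vs. NOR (log2 fold changes of -0.28 to 0.21) or in KD vs. NOR (-0.20 to 0.69), where edgeR called 0 DEGs among all genes (0% of them). At an unadjusted p of at most 0.05 there were 0 members in each, beside 9.19% and 3.54% of all genes. DESeq2 (70 and 31 DEGs) and limma-voom (0 DEGs) called 0 members. Between AM and KD no member was called (0 DEGs and 0 members at an unadjusted p of at most 0.05, beside 0% and 1.11% of all genes), and the log2 fold changes were -0.47 for Idh2 (SE 0.311) and -0.08 to 0.01 for the other 8 (SE 0.136 to 0.209). Such results do not show that the groups were alike.

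In AM vs. NOR the labelled strains pointed in opposite directions. Both C57BL/6 mice given amiloride were below both C57BL/6 NOR mice, and both BALB/c mice given amiloride were above both BALB/c NOR mice, for 7 of 9 members (Cs, Idh3a, Idh3b, Idh3g, Sucla2, Fh1, and Mdh2), beside 5.2% of all genes. For Idh3a the log2 difference was -0.70 within C57BL/6 and 0.10 within BALB/c. In KD vs. NOR the same held for 1 member, Idh3g, beside 2.98% of all genes. The interaction in AM vs. NOR, tested in edgeR after these values were seen, was -0.76 for Idh3a (C57BL/6 minus BALB/c, SE 0.222, FDR 0.481), and the FDR was 0.481 to 0.529 over the 9 members, of which 0 passed, beside 0.0136% of all genes. An unadjusted p of at most 0.05 was found for 4 members, Idh3a, Sucla2, Mdh2, and Fh1, beside 10.1% of all genes. NOR replicate 1, the highest library, is on the C57BL/6 side.

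The 5 highest Idh2 values among the 16 mice were those of the 5 libraries with under 3 CPM of lymphocyte markers, 489 to 803 CPM, and the other 11 libraries had 246 to 441 CPM. Both the gene and this split were picked after the values were seen. How many other genes separate these libraries in the same way was not counted, so the pattern is not shown to be particular to Idh2. The summed slow and oxidative fibre markers were 6534 to 12988 CPM in those 5 libraries and 2895 to 8665 CPM in the other 11. In the 5 libraries 2 to 4 of the 7 lymphocyte markers were at 0 CPM, and in the other 11 none was. The 5 libraries are 1 NOR, 2 CAC, 0 AM, and 2 KD mice, and they hold the high values of Idh2 in CAC (462 ± 155 CPM) and KD (553 ± 256 CPM), whereas AM had 395 ± 37.1 CPM (SD, n = 4 each). Without these libraries, a choice made after the data were seen, the log2 fold change of Idh2 was 0.25 for CAC against NOR and 0.17 for AM and -0.06 for KD against CAC, and that of Idh3a was -0.98, 0.81, and 0.88. The part of the lymphocyte and fibre markers in the Idh2 values was not tested.

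**Figure D4:**
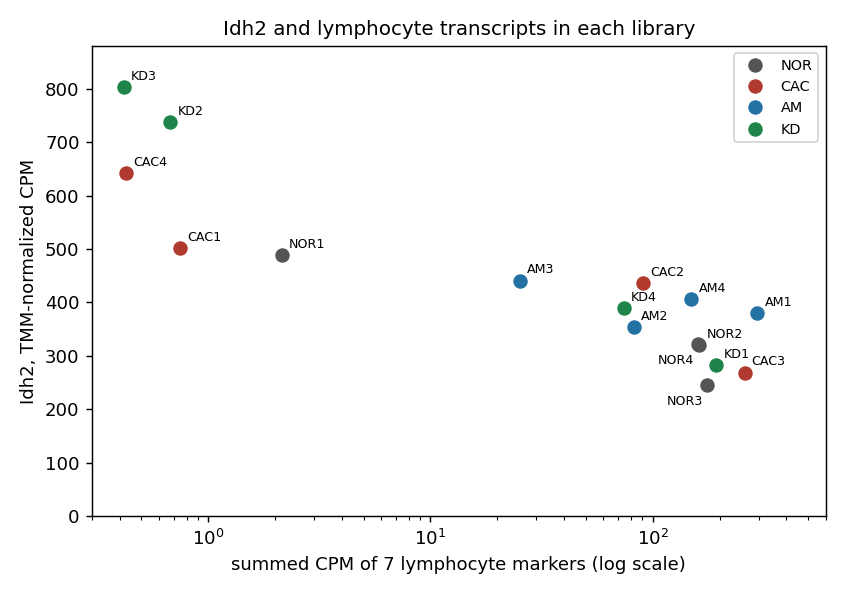
Idh2 in TMM-normalized CPM (vertical axis, from 0) against the summed CPM of 7 lymphocyte markers (horizontal axis, log scale) for the 16 libraries, coloured by group and named by group and replicate. The 5 libraries under 3 CPM of lymphocyte markers hold the 5 highest Idh2 values, 489 to 803 CPM.

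The other genes of the cycle had estimates in the same direction as most members. Of the 8 described here, all had lower estimates in CAC vs. NOR (median log2 fold change -0.55) and 3 passed the FDR limit, Dlst (-0.57, FDR 0.0338) and Suclg1 (-0.62, FDR 0.0443), which encode the second component of 2-oxoglutarate dehydrogenase and the shared subunit of succinyl-CoA synthetase, and Sdhd (-0.54, FDR 0.0363), a membrane anchor of succinate dehydrogenase. Suclg1 alone was a DEG. As for the other lists, this count stands beside the 5.13% of all genes that were DEGs with lower RNA, and 1 DEG in a short list is not a result about the list. Dlst is the partner of Ogdh in its complex, and its difference was about as large as that of Mdh2. The log2 fold change of Ogdh was -0.27 (SE 0.197, FDR 0.406), and Dlst and Ogdh were not tested against each other. Sdha, the flavoprotein of succinate dehydrogenase, had a log2 fold change of -0.55 (FDR 0.0511). Against CAC, all 8 had higher estimates in AM and in KD (medians 0.37 and 0.46), with 0 DEGs in edgeR and 4 and 5 genes at an unadjusted p of at most 0.05, beside 9.47% and 6.06% of all genes that were higher at that p. Of the cytosolic counterparts, Aco1, Idh1, Mdh1, and Acly, 0 were DEGs and 1 had an unadjusted p of at most 0.05 in CAC vs. NOR, which was Mdh1 (-0.57, FDR 0.0351).

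The DEGs with lower RNA in CAC included genes that feed the cycle. Of the 5 genes of the pyruvate dehydrogenase complex, which makes acetyl-CoA from pyruvate, all had lower estimates in CAC and 1 fell as a DEG, Dlat (log2 fold change -0.63, FDR 0.0251), the acetyl-transferring component. Pdha1, the decarboxylating component, had -0.44 (FDR 0.0796). Of the 7 kinase and phosphatase genes that switch the complex, 1 was a DEG. Pdp1, a phosphatase that activates the complex, fell from 32.5 ± 21.8 CPM in NOR to 9.15 ± 3.58 CPM in CAC (SD, n = 4 each; log2 fold change -1.83, FDR 0.0369). Pdk4, a kinase that inactivates it, had 89.3 to 477 CPM in NOR and 388 to 1474 CPM in CAC (log2 fold change 1.69, SE 0.605, FDR 0.102), with overlapping ranges.

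Among the 11 genes for entry and exit of carbon, Oxct1, which activates ketone bodies for oxidation, fell from 345 ± 61.4 to 149 ± 39.6 CPM (log2 fold change -1.21, FDR 0.0117) and was the 1 DEG. The other 10, among them Glud1, Pcx, and Got2, had log2 fold changes of -0.40 to 0.37. Of 7 carrier genes, 2 fell, Mpc2, a subunit of the mitochondrial pyruvate carrier (-0.74, FDR 0.0238), and Slc25a12, an aspartate/glutamate carrier (-0.64, FDR 0.0383). The 4 assembly factors of succinate dehydrogenase held 0 DEGs in edgeR, with 3 at an unadjusted p of at most 0.05. Their estimates differed in direction, 1 higher and 3 lower (log2 fold changes of -0.54 to 0.31). Of all genes, 13.6% were lower at that p.

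Of 8 regulators of mitochondrial genes, 2 fell in CAC. Esrra, an orphan nuclear receptor that drives genes of oxidative metabolism, went from 102 ± 9.51 to 61.8 ± 14.8 CPM (log2 fold change -0.73, FDR 0.0244). Ppargc1b, a coactivator of the same receptors, went from 11.2 ± 2.32 to 6.94 ± 0.967 CPM (-0.69, FDR 0.0381), and it was the 1 DEG of all these lists between AM and CAC, since it rose to 12.8 ± 3.16 CPM (0.88, FDR 0.0444). Its relative Ppargc1a had 29.9 ± 5.10 CPM in NOR and 28.5 ± 9.52 CPM in CAC (-0.07, FDR 0.887). Of 10 general mitochondrial proteins, Cycs, the cytochrome c of the respiratory chain, fell (-0.84, FDR 0.0141), but 4 of the 10 had higher estimates and their median log2 fold change was -0.33. Over the 63 genes of these lists, 9 were DEGs with lower RNA in CAC, beside 5.13% of all genes tested, and 0 with higher RNA, and the median log2 fold change was -0.29.

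**Figure D5:**
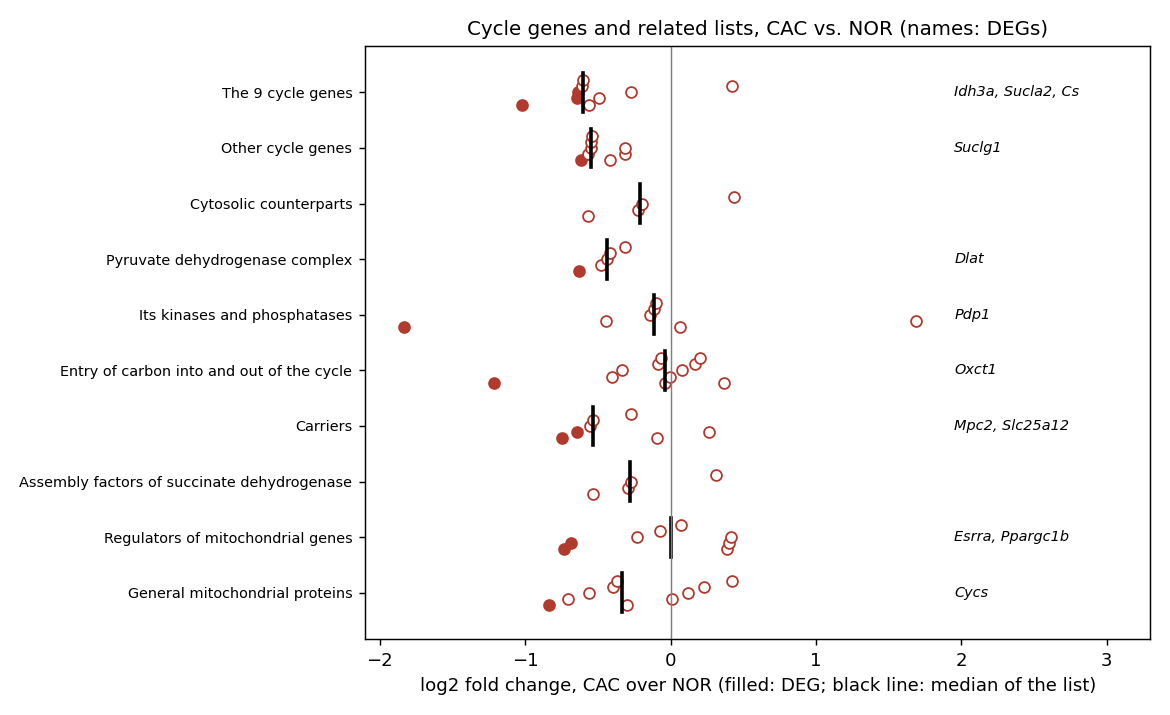
Log2 fold changes in CAC vs. NOR (horizontal axis) of the 9 cycle genes and of each list of related genes, 1 point per gene, filled for DEGs and with a black line at the median of the list. The DEGs, named at the right, are all lower in CAC, and the medians are -0.60 for the 9 cycle genes, -0.55 for the other cycle genes, and -0.33 for general mitochondrial proteins.

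Over the 16 libraries, the genes outside the members whose pattern came nearest to the members' mean profile were Suclg1, Ndufa9, Sdhb, Lrpprc, and D10Jhu81e. Likeness was the mean absolute difference of standardized log2 CPM, in units of SD, over the 13179 genes that averaged 1 CPM or more, and it was 0.145 for Suclg1, 0.179 for Ndufa9, 0.187 for Sdhb, 0.196 for Lrpprc, and 0.197 for D10Jhu81e, where the median gene had 1.09. Among the members themselves, Mdh2 (0.164), Cs (0.169), and Idh3g (0.177) were nearest to their own mean, and Ogdh (0.365, rank 162) and Idh2 (0.950, rank 4350) were farthest. Each member is itself part of that mean, so some of its nearness is built in. The points share libraries, groups, and scaling, so that this is a description of shared variation only.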

How the data were processed

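Gastrocnemius poly(A) libraries of 16 mice were sequenced on the Illumina HiSeq2500. The submitters' processing notes name fastp, Bowtie2, HISAT2, StringTie 1.3.1, mm9, and GRCm38 without role or order; the counting tool and strandedness are not given in the sources used here. The authors deposited whole-number read counts per gene, without normalization, and FPKM made from the same counts (implied gene length varied by at most 0.0579% over 6694 genes). Of 21923 genes, 3719 had 0 counts in all libraries.

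Groups were taken from the labels. Counts were compared with edgeR 4.0.16 in R 4.3.3 (TMM, quasi-likelihood F test, no covariate) on the 8 libraries of 2 groups, and filterByExpr kept genes at min.count 10 and min.total.count 15. The authors' NOISeq was not run. Log2 CPM used a prior count of 2, and SE is the log2 fold change divided by the root of F. Alternatives were other scalings and filters, DESeq2 1.42.0, limma-voom (limma 3.58.1), a term for strain or for replicate number, 1 fit of all 16 libraries, each strain alone, and each mouse left out. The fits without NOR replicate 1 and CAC replicate 3 together and without the libraries of few lymphocyte transcripts were chosen after seeing the data. So were the ratios and the strain interactions of AM and of KD against NOR. The scripts were tested on simulated data.

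The members and gene lists were chosen with earlier results of these data known. The genes named are the 9 members, the DEGs of each list and Sdha, Dlst, Pdha1, Pdk4, Ppargc1a, and Esrra whatever their values, and the 5 genes nearest to the members' mean profile; Sdhd, Mdh1, and the genes given only as examples were added after their values were seen. Positions come from GENCODE M21 (GRCm38; 21905 identifiers matched, 18 did not), promoters from RefSeq (GRCm38.p6; 8 of 9 members matched, Idh3a did not). Replicates are separate mice as far as titles tell, and p-values measure the spread between these libraries. A further listed gene is not reported here. Xist, H2-Ea, and Ighm, listed as markers, were not analysed here, and the lymphocyte list was used with its other 7 genes. Figures were drawn with matplotlib 3.10.9.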

Additional observations from a re-analysis of the deposited data

Results flagged for a closer look

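Among the 36 sets of 4 values (9 members in 4 groups), 7 held a library far from the other 3, by Dixon's limit on the gap to the next value; chance alone gives about 1 in 20 sets, and the members share libraries, so these are not 7 separate events. In the NOR mice the highest value was that of replicate 1 for Cs (1043 CPM), Idh3b (565 CPM), Idh3g (494 CPM), Ogdh (1170 CPM), and Fh1 (292 CPM). In the CAC mice replicate 3 was low for Cs (391 CPM), and in the KD mice replicate 3 was high for Ogdh (1460 CPM). On the deposited FPKM values, which carry no TMM factor, 1 of the 7 was past the same limit (Ogdh in NOR), and Cs in NOR was then 300, 269, 265, and 260 FPKM.

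In AM vs. NOR, both AM mice labelled C57BL/6 were below both NOR mice of that label, and both BALB/c AM mice were above both BALB/c NOR mice, for 7 members, of which 0 were DEGs. The log2 differences within BALB/c were 0.19 for Cs, 0.10 for Idh3a, 0.091 for Idh3b, 0.16 for Idh3g, 0.21 for Sucla2, 0.11 for Fh1, and 0.17 for Mdh2. In KD vs. NOR this held for Idh3g, with 0.11 within BALB/c. The interaction terms in edgeR, which test these differences, gave an FDR of 0.481 or more for all members in AM vs. NOR and of 0.999 in KD vs. NOR.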

How the results depend on the processing

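Of the 9 members, 3 were DEGs in CAC vs. NOR. This number was 6 with upper-quartile scaling, 5 with DESeq2, 5 with all 16 libraries in 1 fit, 1 with total counts only, 1 with no filter on low counts, 1 with a fold of at least 2, 0 within the mice labelled C57BL/6, 0 within BALB/c, and 0 without the libraries of few lymphocyte transcripts (3 mice against 2). Leaving out 1 mouse at a time gave 1 to 2 DEGs, and Idh3a was among them each time. With total counts only, the median of all genes shifted to 0.14 in CAC vs. NOR, and 6 members passed the FDR limit. The number past the FDR limit alone, 4, was 7 with upper-quartile scaling and with DESeq2. It was 2 with no filter on low counts and with the replicate block, and 1 to 5 with 1 mouse left out. In AM vs. CAC the number was 0, and 1 (Idh3a) with total counts only and with DESeq2, and the median log2 fold change of 0.47 was 0.19 within C57BL/6 and 0.72 within BALB/c. In KD vs. CAC the number was 0, and 1 (Idh3a) with DESeq2 and with all 16 libraries in 1 fit. Reversed signs were those of Ogdh in CAC vs. NOR (0.012 without NOR replicate 1 and CAC replicate 3, which were left out as the highest NOR and lowest CAC library of all 9 members, so that every estimate had to rise) and of Idh2 without the libraries of few lymphocyte transcripts (0.17 for AM and -0.065 for KD, each against CAC). The fit without NOR replicate 1 and CAC replicate 3 also made Idh2 a DEG with higher RNA in CAC (log2 fold change 0.83, FDR 0.0414). Of the other changes, the cause was not tested. Depth did not limit the members, each with at least 5938 counts per library. Correlations of same-numbered libraries were -0.19 to 0.60 in CAC vs. NOR (3 of 4 over 0.1), -0.45 to 0.05 in AM vs. CAC, and -0.64 to -0.25 in KD vs. CAC. The numbers share a labelled strain, but not every pair deviated together, so they were not taken as pairs of mice. With the replicate block, Cs in CAC vs. NOR had an FDR of 0.0684 at a log2 fold change of -0.64 and was no DEG, and 2 members were.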
